A study of Mus musculus with 2 samples.

Results

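The Myc, Max and Mxd network is a group of basic helix-loop-helix leucine zipper transcription factors, here the 9 genes Mycn, Myc, Max, Mxd1, Mxd3, Mxd4, Mxi1, Mnt and Mga. They were chosen by symbol, and each had 1 record among the 23746 gene records of the deposited tables. Gene expression was measured by RNA sequencing of total RNA from dissected mouse medulloblastoma, a tumour of the cerebellum, with 1 library from a Brg1 knockout tumour (Brg1KO; genotype CAG-CreER, Rosa26-SmoM2 and Brg1F/F) and 1 library from a tumour with intact Brg1 (WT; CAG-CreER, Rosa26-SmoM2 and Brg1+/+). Both genotypes carried the activated Smoothened allele SmoM2, which switches on Hedgehog signalling, and a Cre recombinase that tamoxifen activates, and both received 10 tamoxifen injections on alternate days. CAG is a broadly active promoter, so the labels do not limit recombination to tumour cells. The labels give no age and do not say whether a library came from 1 animal or a pool. The comparison addresses how expression in a Hedgehog-driven tumour differs when Brg1 is deleted.

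Max is the shared partner of the network. Mycn or Myc paired with Max binds E-box sequences and activates genes of growth and division, whereas the Mxd proteins, Mxi1 and Mnt paired with Max bind the same sequences and recruit the Sin3 and histone deacetylase corepressor. Mga also pairs with Max and belongs to a variant Polycomb complex. In mouse cerebellar granule neuron precursors, from which Hedgehog-type medulloblastoma arises, Mycn is a target of Sonic hedgehog and Mxd3 takes part in the proliferative response to it. Mxd1 and Mxd4 are known from cells that leave the cell cycle and differentiate.

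Values are FPKM, a fragment count corrected for transcript length and for library size. A log2 ratio is log2((Brg1KO FPKM + 1)/(WT FPKM + 1)), which makes differences of low genes smaller than they are in FPKM. A gene is called lower or higher at a log2 ratio of -1 or less or of 1 or more, which is a rule of size and not a test. With 1 library per genotype no difference has a replicate check, an error or a p-value, and differences between animals cannot be told apart from differences between genotypes. A record that reached 1 FPKM in either library is called expressed, and 13279 records did, the 9 network genes included.

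Smarca4, the gene that encodes Brg1, had 3.76 FPKM in the Brg1KO library and 14.05 FPKM in the WT library, or 26.8% of the WT value. This value is for the whole gene. The labels do not name the deleted exons or the share of cells that recombined, and the source of the remaining signal was not tested. The FPKM of all records summed to 343028 in the Brg1KO library and 388032 in the WT library. Small RNA genes held 7.12% of this sum in the Brg1KO library and 14.1% in the WT library. Scaling to equal FPKM sums, used below, is therefore not a check of library size alone. Xist, the RNA that silences 1 X chromosome in female cells, was at 0.369 FPKM in the Brg1KO library and 268.3 FPKM in the WT library, so sex and genotype cannot be told apart here. The files also give a lower and an upper bound for each FPKM, and 52.0% of the records at 1 FPKM or more in the Brg1KO library and 52.5% in the WT library had an FPKM outside its own bounds. The bounds are therefore printed as the authors' values and are not read as an error.

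RefSeq promoter windows on GRCm38.p6 (mm10), 250 bases before to 50 bases after a start site, were found for 8 of the 9 genes, all except Myc. They are shown for Mycn and Mxd3, which had the lowest ratios, and for Mxd4, which had the highest. Capitals mark matches on either strand to the E-box CACGTG, to the E2F letters TTTCCCGC, TTTCGCGC, TTTGCCGC and TTTGGCGC, or to the GLI letters GACCACCCA. For Max and Mnt, whose windows also held an E-box, 40 bases around it are shown. Each is written 5′ to 3′ on the strand of the gene.
Mycn, chr12:12941787-12942086, minus strand: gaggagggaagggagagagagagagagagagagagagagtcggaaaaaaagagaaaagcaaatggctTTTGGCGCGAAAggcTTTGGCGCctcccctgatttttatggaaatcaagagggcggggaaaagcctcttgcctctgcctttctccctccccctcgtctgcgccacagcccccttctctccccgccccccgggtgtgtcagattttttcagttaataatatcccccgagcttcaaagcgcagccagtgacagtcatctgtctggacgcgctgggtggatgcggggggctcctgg
Mxd3, chr13:55329682-55329981, minus strand: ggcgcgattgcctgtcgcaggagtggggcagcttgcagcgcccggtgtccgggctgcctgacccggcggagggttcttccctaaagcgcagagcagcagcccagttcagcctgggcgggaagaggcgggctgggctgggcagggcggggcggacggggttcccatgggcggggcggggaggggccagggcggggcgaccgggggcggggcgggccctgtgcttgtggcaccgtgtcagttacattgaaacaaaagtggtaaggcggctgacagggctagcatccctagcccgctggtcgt
Mxd4, chr5:34187661-34187960, minus strand: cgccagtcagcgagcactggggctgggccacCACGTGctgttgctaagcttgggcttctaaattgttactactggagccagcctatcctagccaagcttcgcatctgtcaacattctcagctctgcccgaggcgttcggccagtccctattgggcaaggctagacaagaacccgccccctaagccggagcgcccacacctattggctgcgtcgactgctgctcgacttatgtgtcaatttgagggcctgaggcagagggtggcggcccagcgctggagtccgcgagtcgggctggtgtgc
Max, chr12:76962229-76962268, minus strand: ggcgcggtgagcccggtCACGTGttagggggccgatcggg
Mnt, chr11:74830784-74830823, plus strand: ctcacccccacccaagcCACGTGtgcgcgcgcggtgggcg

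The Mycn window held 3 E2F matches. One ran from position -183 to -176 and overlapped another, on the opposite strand, from -179 to -172; the third ran from -168 to -161, with positions counted from the start site. An E2F match was present in 2.26% of 32817 promoter windows of the same length, and 3 or more matches were present in 4 windows. The E-box of Mxd4 lay from -219 to -214, that of Mnt from -123 to -118, and that of Max across the start site, from -3 to 3. The E-box was present in 7.15% of the windows. The windows of Mxd1, Mxd3, Mxi1 (3 windows) and Mga held none of the letters searched, and the GLI letters, present in 0.253% of all windows, were in no network window. A match describes the letters and does not show that a factor binds there.

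Of the 9 network genes, 3 were lower in the Brg1KO library, Mycn, Mxd3 and Myc, against 8.67% of all expressed records. Mxd4 was the 1 network gene that was higher, against 16.1% of all expressed records. Max, Mxi1, Mnt, Mxd1 and Mga stayed within 2-fold. The median log2 ratio of the 9 genes was -0.31, beside 0.09 for all expressed records.

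**Figure D1:**
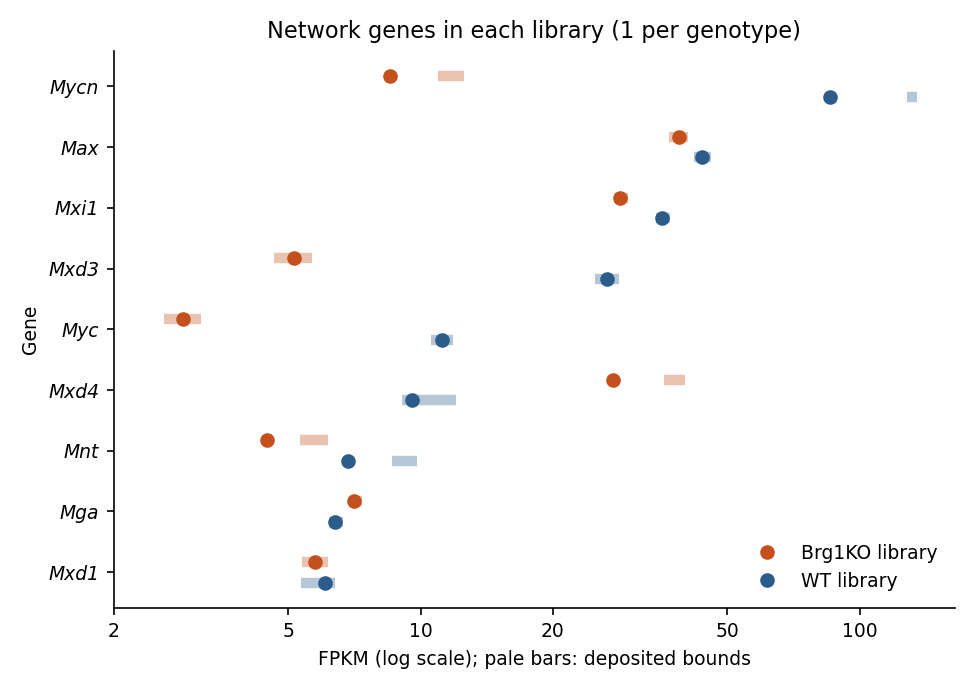
FPKM of the 9 network genes (log axis) in the Brg1KO library (orange) and the WT library (blue), 1 library per genotype, with the deposited bounds as pale bars. Mycn, Mxd3 and Myc lie lower in the Brg1KO library and Mxd4 lies higher, and the Mycn point lies outside its own bounds in both libraries.

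Mycn (chromosome 12, 12936093 to 12941836), a Myc paralogue and oncogene, had 8.52 FPKM in the Brg1KO library and 85.8 FPKM in the WT library, a log2 ratio of -3.19. The Brg1KO value was 9.93% of the WT value, and 45 of the 13279 expressed records had a lower ratio. Mycn was the most abundant network gene in the WT library and the fourth in the Brg1KO library. The deposited bounds were 10.9 to 12.6 FPKM in the Brg1KO library and 128.0 to 135.1 FPKM in the WT library, so both FPKM values lay below their own bounds. From the midpoints of the bounds the log2 ratio was -3.38.

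Myc (chromosome 15, 61985341 to 61990361), the founding member of the family, had 2.88 FPKM in the Brg1KO library and 11.2 FPKM in the WT library, a log2 ratio of -1.65. Its bounds were 2.60 to 3.16 FPKM in the Brg1KO library and 10.5 to 11.8 FPKM in the WT library and did not overlap. Myc was the least abundant network gene in the Brg1KO library. Mycn exceeded Myc 2.96-fold in FPKM in the Brg1KO library and 7.68-fold in the WT library, so both activator genes were lower and Mycn by more. In the bulk tissue fewer cells of a type and less RNA per cell cannot be told apart, for these genes and for those below.

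Max (chromosome 12, 76937269 to 76962248), the obligate partner, had 38.7 FPKM in the Brg1KO library and 43.8 FPKM in the WT library, a log2 ratio of -0.18. It was the most abundant network gene in the Brg1KO library and the second in the WT library. The sum of Mycn and Myc was 0.295 times the Max value in the Brg1KO library and 2.21 times in the WT library. In FPKM, Mycn lay below Max in the Brg1KO library and above it in the WT library, and Myc lay below Max in both.

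Among the Mxd repressor genes, Mxd3 and Mxd4 lay on opposite sides. Mxd3 (chromosome 13, 55325168 to 55329730) had 5.14 FPKM in the Brg1KO library and 26.6 FPKM in the WT library, a log2 ratio of -2.17, with bounds of 4.63 to 5.65 FPKM in the Brg1KO library and 24.97 to 28.3 FPKM in the WT library. It was the 1 repressor gene that was lower, and 146 expressed records had a lower ratio. The record of Prelid1 on the opposite strand overlaps the Mxd3 record by 105 of its 4563 bases and had 46.3 FPKM in the Brg1KO library and 71.3 FPKM in the WT library; the labels do not say whether counting used strand, so reads in the overlap cannot be assigned.

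Mxd4 (chromosome 5, 34176580 to 34187710) had 27.4 FPKM in the Brg1KO library and 9.58 FPKM in the WT library, 2.86-fold higher with a log2 ratio of 1.43. Its bounds were 35.9 to 40.1 FPKM in the Brg1KO library, above the FPKM itself, and 9.08 to 12.03 FPKM in the WT library. The midpoints of the bounds gave a log2 ratio of 1.75. Of all expressed records 1201 had a higher ratio, so a difference of this size was common in these libraries. In FPKM Mxd4 was 5.34 times Mxd3 in the Brg1KO library and 0.360 times Mxd3 in the WT library.

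The other repressor genes stayed within 2-fold. Mxi1 (chromosome 19, 53310506 to 53375810), whose record covers 3 groups of start sites, had 28.5 FPKM in the Brg1KO library and 35.5 FPKM in the WT library. Mxd1 (chromosome 6, 86647045 to 86669159) had 5.76 FPKM in the Brg1KO library and 6.07 FPKM in the WT library and was the 1 network gene whose deposited bounds overlapped, at 5.36 to 6.16 FPKM in the Brg1KO library and 5.33 to 6.37 FPKM in the WT library. Its log2 ratio of -0.06 became 0.09 once both libraries were given an equal FPKM sum. Mnt (chromosome 11, 74830924 to 74845725), a broadly expressed repressor, had 4.47 FPKM in the Brg1KO library and 6.82 FPKM in the WT library, a log2 ratio of -0.52, and both values lay below their own bounds.

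The 4 genes Mxd1, Mxd3, Mxd4 and Mxi1 summed to 66.8 FPKM in the Brg1KO library and 77.8 FPKM in the WT library, so their sum stayed within 2-fold while Mxd3 and Mxd4 did not. Mxd4 made up 41.1% of this sum in the Brg1KO library and 12.3% in the WT library. Mxd3 made up 7.69% in the Brg1KO library and 34.2% in the WT library. Mxi1 made up 42.6% in the Brg1KO library and 45.6% in the WT library. By the bound midpoints Mxd4, at 38.0 FPKM, exceeded Mxi1, at 28.6 FPKM, in the Brg1KO library. With Mnt added, the repressor genes summed to 6.25 times the sum of Mycn and Myc in the Brg1KO library and to 0.873 times in the WT library. These ratios within a library do not depend on how it was scaled, and most of the difference between them lay in the activator sum, which was 11.4 FPKM in the Brg1KO library and 97.0 FPKM in the WT library. This sum leaves out the Myc paralogue Mycl1, which had 15.3 FPKM in the Brg1KO library and 27.0 FPKM in the WT library. With Mycl1 counted as an activator both ratios would be smaller, the Brg1KO ratio by more.

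**Figure D2:**
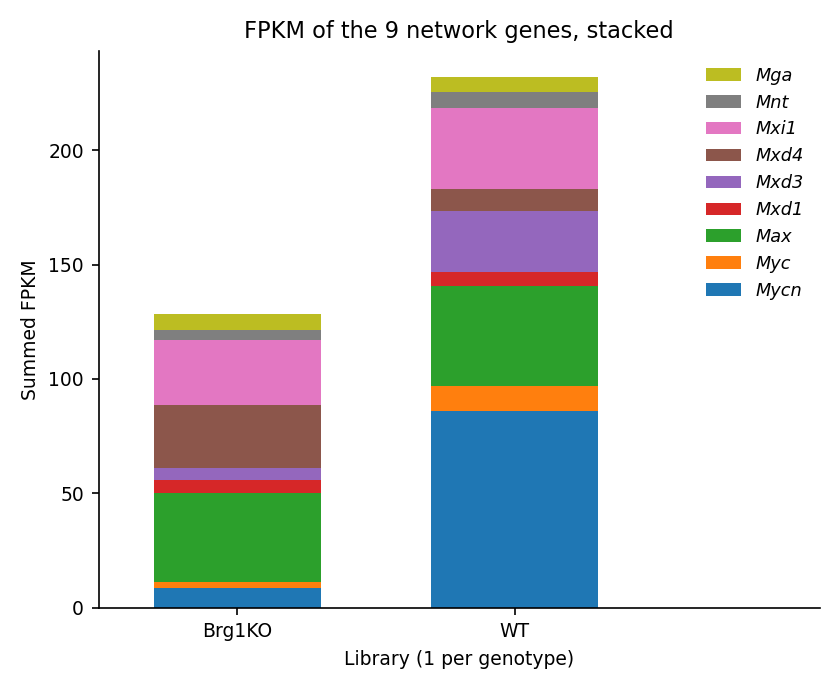
FPKM of the 9 network genes stacked for the Brg1KO library (left) and the WT library (right), 1 library per genotype. The stack reaches 128.5 FPKM in the Brg1KO library and 231.8 FPKM in the WT library, and the Mycn segment at the bottom makes up 6.63% of the Brg1KO stack and 37.0% of the WT stack.

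Mga (chromosome 2, 119897228 to 119969581), a Max partner that also carries a T-box DNA-binding domain, had 7.04 FPKM in the Brg1KO library and 6.38 FPKM in the WT library, a log2 ratio of 0.12. Without Mycn the network genes summed to 119.9 FPKM in the Brg1KO library and 146.0 FPKM in the WT library. The order by FPKM in the Brg1KO library was Max, Mxi1, Mxd4, Mycn, Mga, Mxd1, Mxd3, Mnt and Myc. In the WT library it was Mycn, Max, Mxi1, Mxd3, Myc, Mxd4, Mnt, Mga and Mxd1. With no replicates, no spread is available for calling neighbours in these orders different.

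**Figure D3:**
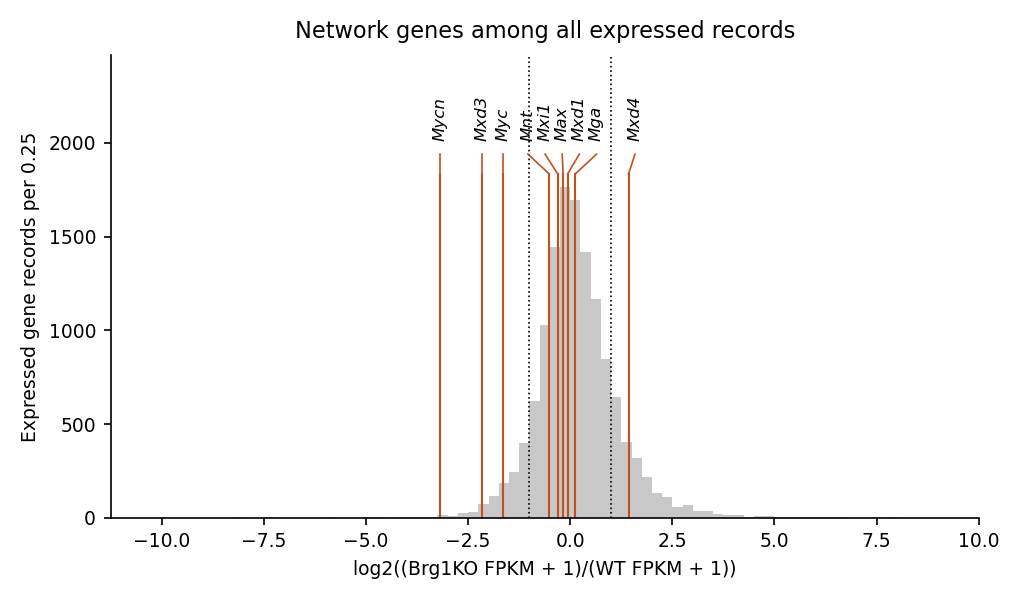
Number of expressed gene records per 0.25 of log2 ratio (grey bars, 13279 records), with the 9 network genes as orange lines and 2-fold as dotted lines. Mycn, Mxd3 and Myc lie left of the dotted line at -1, Mxd4 lies right of the line at 1, and the other 5 genes lie between these lines.

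Genes of division were lower in the same library as Mycn, Myc and Mxd3. All 25 proliferation genes of a list were lower in the Brg1KO library, beside 8.67% of all expressed records. These 25 genes had a median log2 ratio of -1.87 and a range of -2.87 to -1.26. Their FPKM summed to 469.0 in the Brg1KO library and 1738.8 in the WT library. Ube2c, which acts in mitotic exit, had 23.8 FPKM in the Brg1KO library and 180.2 FPKM in the WT library, and the helicase gene Mcm6 had 9.56 FPKM in the Brg1KO library and 62.0 FPKM in the WT library. The Mycn ratio lay below this range, and the Mxd3 and Myc ratios lay within it.

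Of 8 genes of granule neuron precursors 7 were lower, beside 8.67% of all expressed records. The gene not called was Barhl1, with 58.1 FPKM in the Brg1KO library and 115.2 FPKM in the WT library (log2 ratio -0.98). It was named after its value was seen. The list includes the Hedgehog target Gli1 and D-type cyclin genes, so it is not one of precursor identity alone. The 8 genes had a median of -2.37 and a sum of 209.7 FPKM in the Brg1KO library and 776.8 FPKM in the WT library. Ccnd2, a D-type cyclin, had 58.8 FPKM in the Brg1KO library and 158.7 FPKM in the WT library, and Sfrp1, a secreted Wnt modulator, had 39.1 FPKM in the Brg1KO library and 177.7 FPKM in the WT library. Mature cell markers were higher where Mxd4 was higher and Mycn, Myc and Mxd3 were lower. Among all expressed records 16.1% were higher, and the counts of markers below are read beside this share. All 9 granule neuron markers were higher, with a sum of 465.3 FPKM in the Brg1KO library and 71.3 FPKM in the WT library, and so were all 8 Purkinje cell markers, with 736.3 FPKM in the Brg1KO library and 11.7 FPKM in the WT library. All 5 expressed of 6 interneuron markers were higher (sums over all 6 of 402.2 FPKM in Brg1KO and 13.2 FPKM in WT). Pvalb alone had 293.8 FPKM of this sum in Brg1KO and 10.9 FPKM in WT. In Brg1KO Slc6a5 had 1.21 FPKM and Pax2 had 0.592 FPKM, both named after their values were seen. Whether this list tells interneurons apart from Purkinje cells was not tested. All 8 oligodendrocyte markers were higher (717.3 FPKM in Brg1KO and 71.1 FPKM in WT). All 8 astrocyte and Bergmann glia markers were higher (2541 FPKM in Brg1KO and 489.5 FPKM in WT), or 5 of 8 with ratios centred on the median of all records. Of 8 microglia and macrophage markers 6 were higher (134.3 FPKM in Brg1KO and 63.8 FPKM in WT), and of 6 expressed endothelial markers 2 were. All 7 endothelial markers summed to 102.4 FPKM in Brg1KO and 32.1 FPKM in WT. Of this Ly6c1 alone had 66.5 FPKM in Brg1KO and 10.2 FPKM in WT. None (0) of these markers was listed at 0 in either library. The part of these cells in the network values was not tested.

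**Figure D4:**
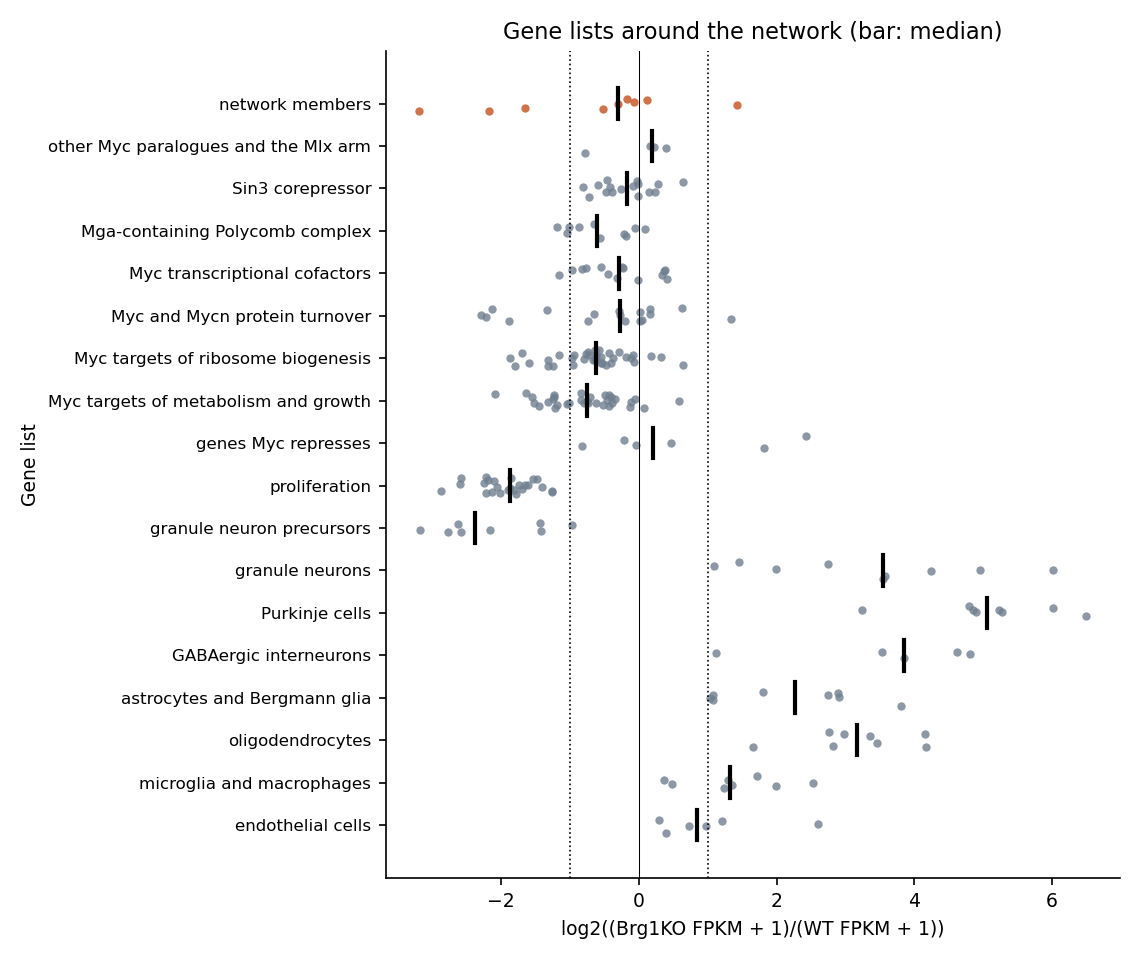
Log2 ratios of expressed genes in 18 lists (points), with the median of each list as a black bar, 0 as a thin line and 2-fold as dotted lines. Network genes (orange, top row) spread from -3.19 to 1.43, the proliferation and precursor lists lie left and the markers of mature cells lie right.

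Reported targets of Myc were lower in part. Of 36 targets in ribosome biogenesis 8 were lower and 0 higher, beside 8.67% lower and 16.1% higher among all expressed records. Their median log2 ratio was -0.63, beside 0.09 for all expressed records, and 33 had a ratio below 0. Across the alternative scalings, pseudocounts and bound midpoints 7 to 12 of these were lower. Polr1b, a subunit of RNA polymerase I, had 6.05 FPKM in the Brg1KO library and 24.8 FPKM in the WT library. Fbl, the methyltransferase fibrillarin of the nucleolus, had 21.3 FPKM in the Brg1KO library and 71.1 FPKM in the WT library. Exosc5 of the RNA exosome (log2 ratio -1.79) and Ppan of ribosome assembly (-1.59) were also lower.

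Of 33 expressed targets in metabolism and growth 13 were lower and 0 higher, beside the same shares of all records, with a median of -0.75. Shmt1, which makes one-carbon units from serine, had 4.71 FPKM in the Brg1KO library and 23.2 FPKM in the WT library. Cdk4, the kinase of D-type cyclins, had 129.3 FPKM in the Brg1KO library and 381.8 FPKM in the WT library. Dctpp1, which hydrolyses dCTP, and Srm, spermidine synthase, had log2 ratios of -1.64 and -1.51. Of 6 genes that Myc is reported to repress, Ndrg2 (652.8 FPKM in the Brg1KO library and 121.1 FPKM in the WT library) and Ndrg1 (8.55 FPKM in the Brg1KO library and 1.71 FPKM in the WT library) were higher and 0 were lower. Among all expressed records 16.1% were higher and 8.67% lower, and a list of 6 is too short to set its counts apart from these shares. The median of the 6 was 0.21, beside 0.09 for all expressed records, and 3 had a ratio below 0. The lowest was -0.82 for Gadd45a, a stress-response gene named after its value was seen. Ndrg2 is also an astrocyte gene. The list of astrocyte and Bergmann glia markers had a median log2 ratio of 2.27 and a range of 1.03 to 3.80. The part of these cells in the Ndrg2 value was not tested.

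The corepressor through which the Mxd proteins act showed no call. All 16 Sin3 complex genes stayed within 2-fold, with a median of -0.17. Among all expressed records 24.8% lay past 2-fold in either direction, so most records also stayed within it. Rbbp4 and Sin3b, the most abundant by the mean of both libraries, had 58.1 FPKM (Rbbp4) and 61.2 FPKM (Sin3b) in the Brg1KO library and 96.1 FPKM (Rbbp4) and 50.3 FPKM (Sin3b) in the WT library. Of 10 genes of the Polycomb complex that holds Mga, 3 were lower and 0 higher, beside 8.67% lower among all expressed records. Their median was -0.61. With equal FPKM sums 1 was lower, and by the bound midpoints 4 were. Wdr5 had 13.0 FPKM in the Brg1KO library and 31.0 FPKM in the WT library. Tfdp1 (log2 ratio -1.04) and Cbx3 (-1.01) lay just past 2-fold and fell inside it, at -0.87 and -0.83, with equal FPKM sums.

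The other Myc paralogues and the Mlx arm, a parallel network of Max-like factors, had 4 expressed genes of 5, all within 2-fold. Mycl1, also a Myc paralogue, had 15.3 FPKM in the Brg1KO library and 27.0 FPKM in the WT library (log2 ratio -0.78, but -1.01 from the midpoints of the bounds), so it exceeded both Mycn and Myc in the Brg1KO library. Mlx had 14.3 FPKM in the Brg1KO library and 12.6 FPKM in the WT library. Of 14 transcriptional cofactors of Myc 1 was lower and 0 higher, a share of lower genes near the 8.67% of all expressed records. It was Ruvbl2, a name chosen after its value was seen. Ruvbl2, a helicase-like ATPase of several chromatin complexes, had 12.8 FPKM in the Brg1KO library and 29.96 FPKM in the WT library. Its log2 ratio of -1.16 became -0.99 with equal FPKM sums, which left 0 cofactor genes lower. With smaller pseudocounts or after centring 2 were lower, the other being Kat2a. Kat2a, also named after its value was seen, had a log2 ratio of -0.97, or -1.06 after centring. The most abundant cofactor genes, Actl6a and Hcfc1, had log2 ratios of -0.83 and -0.54.

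Among 17 genes of Myc and Mycn protein turnover 5 were lower and 1 higher, beside 8.67% lower and 16.1% higher among all expressed records, with a median of -0.27. Aurka and Plk1, mitotic kinases that also stabilise Mycn protein, had 6.999 FPKM (Aurka) and 5.16 FPKM (Plk1) in the Brg1KO library and 38.2 FPKM (Aurka) and 27.8 FPKM (Plk1) in the WT library. Skp2, a ubiquitin ligase subunit of the S phase, had 4.83 FPKM in the Brg1KO library and 24.5 FPKM in the WT library, and the kinase gene Pim1 had 7.56 FPKM in the Brg1KO library and 30.5 FPKM in the WT library. C330027C09Rik, the gene now named Cip2a, was the fifth (log2 ratio -1.33). Fbxw7, the ubiquitin ligase subunit that marks Myc and Mycn for degradation, was the higher one, with 12.2 FPKM in the Brg1KO library and 4.25 FPKM in the WT library; C330027C09Rik and Fbxw7 were named after their values were seen. Aurka, Plk1 and Skp2 are also cell cycle genes, and the proliferation genes were lower in the same library.

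Genes with levels most like those of Mycn were sought over the 2 libraries by distance in log2(FPKM + 1), among 12062 expressed named genes. Gli1, a transcription factor and target of Hedgehog signalling, was nearest at a distance of 0.09, with 9.03 FPKM in the Brg1KO library and 89.2 FPKM in the WT library. Siva1 (0.38), Syt13 (0.41), Atoh1 (0.43), the transcription factor that defines granule neuron precursors, and Adck5 (0.47) followed. The genes nearest to Mxd4 were Fam131a, Cd302, Slc7a2, Zfp36 and Megf9, at distances of 0.07 to 0.10. With 2 libraries such likeness is one of level and ratio only.

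The nearest expressed records along the chromosome, 2 on each side and without overlapping records, were read for each network gene. This choice was made after the values of the network genes were seen. Of these 36 neighbours 1 was lower and 4 were higher, beside 8.67% lower and 16.1% higher among all expressed records, so calls were no more frequent than among all records. Their log2 ratios ran from -1.07 to 1.44, and the farthest lay 2328 kb from its network gene. Ddx1, an RNA helicase gene 277 kb from Mycn that is often co-amplified with MYCN in human tumours, had 43.1 FPKM in the Brg1KO library and 41.8 FPKM in the WT library (log2 ratio 0.04). The other neighbours of Mycn had log2 ratios of 0.98 (Tubb2a-ps2, a pseudogene that can share reads with its parent; 1.12 with equal FPKM sums and up to 1.21 with smaller pseudocounts), 1.07 (Fam49a, but 0.98 after centring) and 0.58 (Nbas).

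Pvt1, a long non-coding RNA gene 47.6 kb from Myc, was the lower neighbour, with 1.39 FPKM in the Brg1KO library and 4.04 FPKM in the WT library (log2 ratio -1.07, or -0.95 with equal FPKM sums). The 4 neighbours of Mxd3 had log2 ratios from -0.38 (Grk6) to 0.04 (Lman2). Zfyve28, 7.18 kb from Mxd4, was higher along with it, with 6.70 FPKM in the Brg1KO library and 1.88 FPKM in the WT library (log2 ratio 1.42), and Poln, 7.13 kb away on the other side, had 1.46 FPKM in the Brg1KO library and 0.629 FPKM in the WT library (log2 ratio 0.59). Rnf4 beyond Zfyve28 and Haus3 beside Poln had log2 ratios of 0.04 and -0.11. The other higher neighbours were Fam49b, 1939 kb beyond Myc (1.03, but 0.94 after centring), and Add3, 63.1 kb from Mxi1 (1.44).

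**Figure D5:**
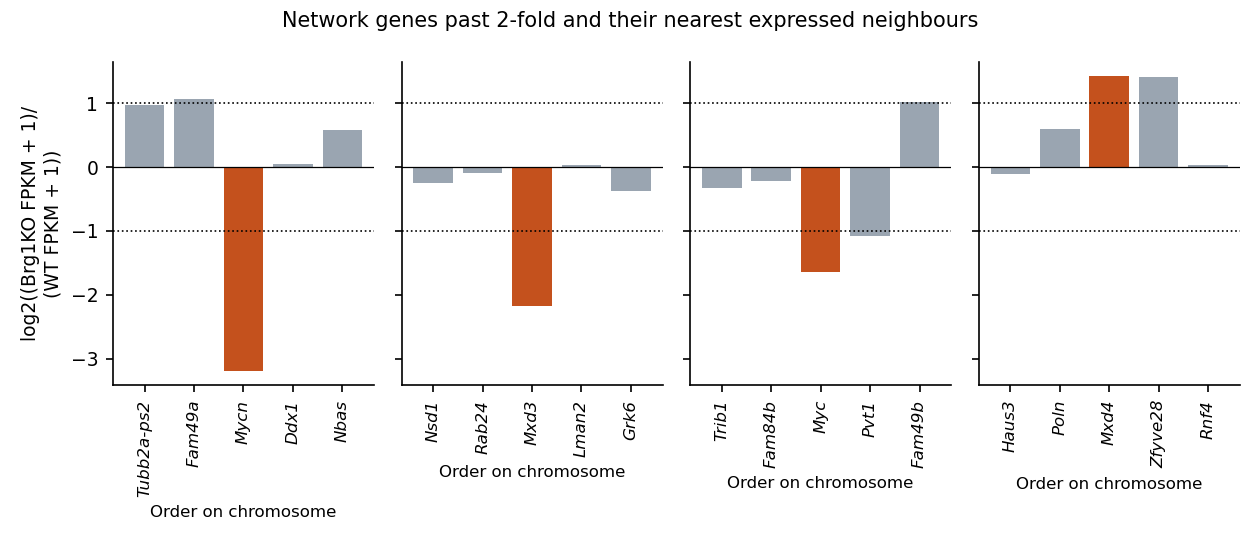
Log2 ratios of the 4 network genes past 2-fold (orange bars, Mycn, Mxd3, Myc and Mxd4 from left to right) and of the 2 nearest expressed records on each side (grey bars), in order along the chromosome, with 2-fold as dotted lines. Mycn stands at -3.19 between Fam49a (560 kb away) at 1.07 and Ddx1 (277 kb away) at 0.04, and Mxd4 at 1.43 stands beside Zfyve28 at 1.42.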

How the data were processed

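RNA sequencing of 2 mouse medulloblastoma libraries, 1 per genotype, was analysed from the gene tables that the authors deposited. Per the file headers, each gene has an FPKM, its bounds and a status. In the submitters' processing notes mm10 and Cuffdiff 2.1.1 are named, with no role. Aligner, annotation, strand setting and the making of the bounds: not given in the sources used here. Counts are absent from the tables, and among 650 records under 0.05 FPKM in both libraries the fullest bin of log2 ratio held 50, so no steps of whole reads were recovered and depth is unknown. Tables were joined by symbol and locus. All 9 network records had status OK. Start positions count from 0 in the files and from 1 here. Calls used a pseudocount of 1 FPKM, at least 1 FPKM in 1 library and 2-fold, with no test. Network genes and lists were chosen with earlier results of these data known. Named were all network genes, Smarca4, up to 4 genes per list with the largest log2 ratio past 2-fold (or the 2 most abundant), the 2 most abundant cell markers per list (values given for some) and the 5 genes nearest to Mycn and to Mxd4. Promoter windows came from RefSeq (GRCm38.p6). Alternatives were pseudocounts, scalings, thresholds, filters, means and bound midpoints. The code that makes the calls was tested on simulated FPKM pairs, which is no test of the genotypes. Software was matplotlib 3.10.9, pandas 2.3.3, numpy 2.4.6 and Python 3.11.15.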

Additional observations from a re-analysis of the deposited data

How the results depend on the processing

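The calls of Mycn, Mxd3, Myc and Mxd4, and the lack of one for the other 5 network genes, held under all 6 alternatives of pseudocount, scaling and value used. The log2 ratio ranged from -3.38 to -3.02 for Mycn, from -2.35 to -2.01 for Mxd3, from -1.92 to -1.50 for Myc and from 1.34 to 1.75 for Mxd4. Rescaling FPKM to the same sum moved the median of all expressed records to 0.24, beside 0.09 as deposited. At a 4-fold threshold 2 network genes were lower and 0 were higher. The network median ranged from -0.72 (the mean in its place) to -0.14. The repressor sum over the activator sum from the bound midpoints was 5.69 in the Brg1KO library and 0.616 in the WT library. The endothelial list median of 0.85 passed 1 with smaller pseudocounts or the mean. No paired analysis was possible because each genotype had 1 library, and for the same reason none could be left out. The unknown depth limits what the low values of Myc, Mnt, Mxd1 and Mga, and of Mxd3 in the Brg1KO library, can show.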
